A study of Mus musculus with 44 samples.

Results

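A set of 9 transcripts that neurons make when they are strongly activated, *Npas4*, *Ier2*, *Gadd45b*, *Arc*, *Homer1*, *Plk2*, *Rgs2*, *Nptx2* and *Inhba*, were followed through translating mRNA of mouse hippocampus. They were chosen by symbol, and each symbol matched 1 Ensembl identifier of the count table, which lists 55335 genes. The measurement was TRAP-seq, in which tagged ribosomes are captured and the mRNA on them is sequenced. The mice were male offspring of Emx1-IRES-Cre females and NuTRAP males, so that cells with a history of Emx1 expression, mostly excitatory neurons and also progenitors, carried the tag in every group. ELE (early-life exercise) mice could run on a wheel in the cage between postnatal days 21 and 41, and their sedentary littermates had no wheel. Tissue was taken the day after. Both hippocampi were combined in the SIT libraries (simultaneous INTACT and TRAP, which takes nuclei and ribosomes from 1 homogenate), with 4 ELE and 4 sedentary mice. In separate isolation, 1 hippocampus per mouse went to TRAP, with 3 ELE and 3 sedentary mice for the left side and 3 and 3 for the right. Sides were taken from the study's table of libraries by mouse number. The labels carry no mouse numbers, and the order of the samples under them runs with the opposite sides, so left and right may be exchanged throughout. An exchange would swap the left and right values and turn the sign of differences between the sides, and it would leave values over both sides as they are. The 20 libraries were thus 20 mice of the 44 samples of the series. All animals were housed in pairs.

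Synaptic activity raises these genes in successive steps. Calcium entering through NMDA receptors and L-type channels activates transcription factors already present, such as CREB and SRF, which switch on immediate early genes within minutes. Some of those genes encode regulators of transcription, and others act directly at the synapse, where they adjust glutamate receptors, scaffolds and secreted signals. In the hippocampus such transcripts are known for steep, short-lived rises after exploration, learning or seizures, so that a single animal's level depends on what it did shortly before tissue was taken. In whole-tissue captures like these, fewer active cells and less RNA per active cell cannot be told apart.

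The members stand at scattered places of the GRCm38 genome. *Npas4* (ENSMUSG00000045903.9) lies at chr19:4984355-4990316 on the minus strand, *Ier2* (ENSMUSG00000053560.5) at chr8:84661331-84662852, minus, and *Gadd45b* (ENSMUSG00000015312.9) at chr10:80930073-80932204, plus. *Arc* (ENSMUSG00000022602.14) lies at chr15:74669083-74672570, minus, *Rgs2* (ENSMUSG00000026360.9) at chr1:143999338-144004161, minus, and *Nptx2* (ENSMUSG00000059991.7) at chr5:144545902-144557478, plus. Chromosome 13 holds *Inhba* (ENSMUSG00000041324.14) at chr13:16011851-16031621, *Homer1* (ENSMUSG00000007617.18) at chr13:93299635-93405129 and *Plk2* (ENSMUSG00000021701.8) at chr13:110395046-110400844, all on the plus strand. *Homer1* shares its strand with 2 overlapping gene models, Gm47075 and Gm47088, and its count joins the long scaffold form with the short activity-induced form. *Inhba* has 2 antisense partners, which the authors' strand-aware counting keeps apart.

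RefSeq promoter windows of 300 bases, 250 before and 50 after the start (GRCm38.p6), were given for 6 of the 9 members. Stretches of 4 are shown because they hold the letters that CREB-type factors are known to bind. All 9 members rise in 1 library described below, among them *Gadd45b* and *Inhba*, whose windows lack these letters. Capitals mark each TGACG within the stretch on either strand, and in *Plk2* also TGACGTCA, the full CRE, which contains TGACG once on each strand. The stretches, on the gene's own strand, were *Plk2* at chr13:110394944-110395043, *Homer1* at chr13:93303657-93303756, *Npas4* at chr19:4990072-4990171 and *Rgs2* at chr1:144004200-144004349.
Plk2: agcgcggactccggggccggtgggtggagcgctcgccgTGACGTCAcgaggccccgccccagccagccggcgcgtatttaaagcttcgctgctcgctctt
Homer1: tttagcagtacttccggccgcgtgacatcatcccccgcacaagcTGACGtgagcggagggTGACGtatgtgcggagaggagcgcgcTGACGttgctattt
Npas4: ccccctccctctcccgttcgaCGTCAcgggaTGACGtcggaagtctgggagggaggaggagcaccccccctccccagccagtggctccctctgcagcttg
Rgs2: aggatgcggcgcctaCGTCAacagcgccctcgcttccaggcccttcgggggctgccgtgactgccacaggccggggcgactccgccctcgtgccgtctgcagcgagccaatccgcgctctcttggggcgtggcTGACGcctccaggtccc
TGACG was present in windows of 4 of the 6 members and in 20.8% of all 32851 windows. TGACGTCA was in 1.79% of all windows and, among the members, in *Plk2*. The windows of *Gadd45b* and *Inhba* held neither, and each had TATAAA, which is in 13.6% of all windows. The other letters searched, on both strands, were TGANTCA (the AP-1 site), GCGTGGGCG (an EGR site) and the CArG box of SRF, and none was in a member's window, against 7.81%, 0.612% and 1.63% of all windows. A second *Homer1* window also held none of the letters searched. A match of letters is a description and not a bound site.

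Levels are given as CPM, counts relative to the library total after TMM scaling over the 20 libraries. Between 45895097 and 65767802 counts were deposited per library, and the lowest count of any member in any library was 37 (*Npas4*). Excitatory neuron markers were present in all libraries, with 7 of 7 above 0 and a summed level from 6763 to 10183 CPM. The study left 3 SIT libraries out of its comparison, namely NT6.304 of the ELE group with NT7.2.3 and NT7.2.4 of the sedentary group, and the SIT comparison below follows it with 5 libraries unless all 8 are named. In NT7.2.3 and NT7.2.4, 8.64% and 9.64% of counts were mitochondrial, against at most 0.523% elsewhere, and the summed level of 6 interneuron markers was 817 and 854 CPM, against at most 108 CPM. In the same libraries the microglia marker sums were 145 and 154 CPM, against at most 8.14 CPM elsewhere. The meningeal marker sums were 87.0 and 84.0 CPM, against at most 48.8 CPM. The study's reporting summary states that 2 sedentary samples were excluded for much ribosomal and other non-mRNA sequence, likely from an isolation error. How these differences bear on the members was not tested.

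Per kilobase of exon, the order of the median levels over all libraries ran from *Plk2* (49.2 CPM per kb) and *Nptx2* (36.6) through *Arc* (26.9), *Homer1* (15.6), *Rgs2* (8.17), *Gadd45b* (5.03) and *Ier2* (4.07) to *Inhba* (1.06) and *Npas4* (0.849). *Homer1* was above *Rgs2* in all 20 libraries, and *Arc* above *Homer1* in 19. *Nptx2* was above *Arc* in 15 and *Gadd45b* above *Ier2* in 16, and *Inhba* exceeded *Npas4* in 10 of the 20, so these neighbours overlapped. Relative spread differed as well, though less than level. Over the 19 libraries without NT6.304 the coefficient of variation of the CPM was 16.5% for *Homer1*, 16.5% for *Plk2* and 19.1% for *Rgs2*, and it reached 51.0% for *Nptx2*, 67.7% for *Npas4* and 88.6% for *Inhba*.

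**Figure D1:**
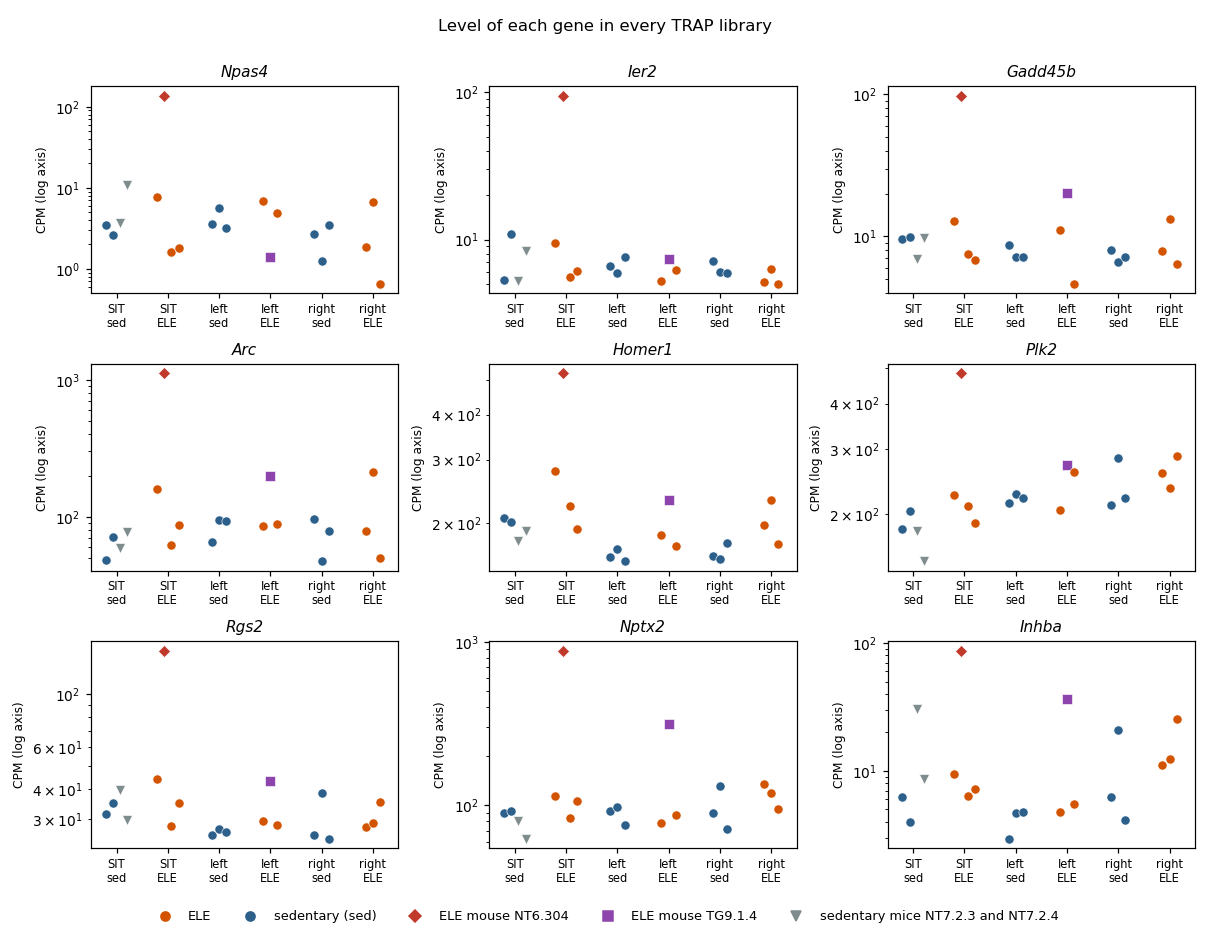
CPM of each gene (log axis) in the 20 libraries, each point 1 mouse, by isolation, hemisphere and exercise group. ELE mouse NT6.304 (red diamond) is the highest point in all 9 panels, and ELE mouse TG9.1.4 (purple square) is the next highest for *Nptx2*, *Inhba* and *Gadd45b* but is among the lowest for *Npas4*.

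One animal dominated the set. In ELE mouse NT6.304 all 9 members were higher than in every other library, by 2.19-fold (*Plk2*) to 39.2-fold (*Npas4*) over the median of the other 19 libraries, with a median of 12.4-fold. Among the 14225 genes that averaged 1 CPM or more, 3.34% exceeded 2-fold in that library with 0.5 CPM added to both terms of the ratio, and 3.803% without. On the first scale, in the other libraries between 0.035% and 4.06% of genes did so, the highest shares being in NT7.2.3 and NT7.2.4, where 1 member each was over 2-fold. Among the regulators, *Npas4*, a calcium-induced bHLH-PAS factor that shapes inhibitory synapses, stood at 137 CPM in NT6.304 and between 0.655 and 10.8 CPM elsewhere. *Ier2*, a nuclear immediate early protein, stood at 95.0 CPM against 5.01 to 10.9. *Gadd45b*, linked to activity-induced DNA demethylation, stood at 98.3 CPM against 4.63 to 20.2.

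The synaptic members were also highest in NT6.304, by 2.19-fold for *Plk2*, 2.82-fold for *Homer1*, 5.12-fold for *Rgs2*, 9.51-fold for *Nptx2*, 13.7-fold for *Inhba* and 14.2-fold for *Arc*. *Arc*, which promotes the removal of AMPA receptors from the surface, stood at 1119.8 CPM against 47.2 to 212 in the other libraries. *Homer1*, a scaffold that ties group I metabotropic glutamate receptors to the postsynaptic density, stood at 522 CPM against 156 to 279. *Plk2*, a kinase that weakens overactive synapses through the spine protein encoded by *Sipa1l1*, stood at 484 CPM against 149 to 287. *Rgs2*, which speeds the shut-off of Gq signalling, stood at 151 CPM against 24.8 to 44.1. *Nptx2*, a secreted pentraxin that clusters AMPA receptors, stood at 881 CPM against 62.4 to 315. *Inhba*, a subunit of the secreted factor activin, stood at 87.1 CPM against 2.93 to 36.8.

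Other activity-regulated transcripts stood high in the same library. Of 24 immediate early regulators listed beside the members, 19 were over 2-fold above the median of the other libraries in NT6.304, and of 16 later activity-regulated genes, 11 were. *Fos* reached 614 CPM, 53.2-fold over that median, and the neuropeptide genes *Npy* and *Penk* reached 776 and 681 CPM. Of 32 binding partners and relatives of the members, such as Shank and other Homer genes, 6 were over 2-fold and 6 under 0.5-fold. Among listed genes that averaged 1 CPM or more, 18 of 23 regulators, 11 of 14 later genes and 5 of 31 partners were over 2-fold, against 3.803% of all 14225 genes at that level. Under 0.5-fold were 1, 0 and 6 of these, against 5.85% of all genes. The depth of the library, 51744157 counts, its mitochondrial share of 0.195% and its excitatory marker sum of 7225 CPM lay within the range of the other SIT libraries or just below it. Its summed astrocyte marker level, 3802 CPM, was the highest of the SIT libraries, where the others ran from 1510 to 3174. Its summed level of 5 striatal markers, 126 CPM, was above the highest of the other 19 libraries, 73.2 CPM. Its interneuron marker sum of 108 CPM was also the highest outside the 2 sedentary libraries named above. The part of such cells in the members' values was not tested.

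**Figure D2:**
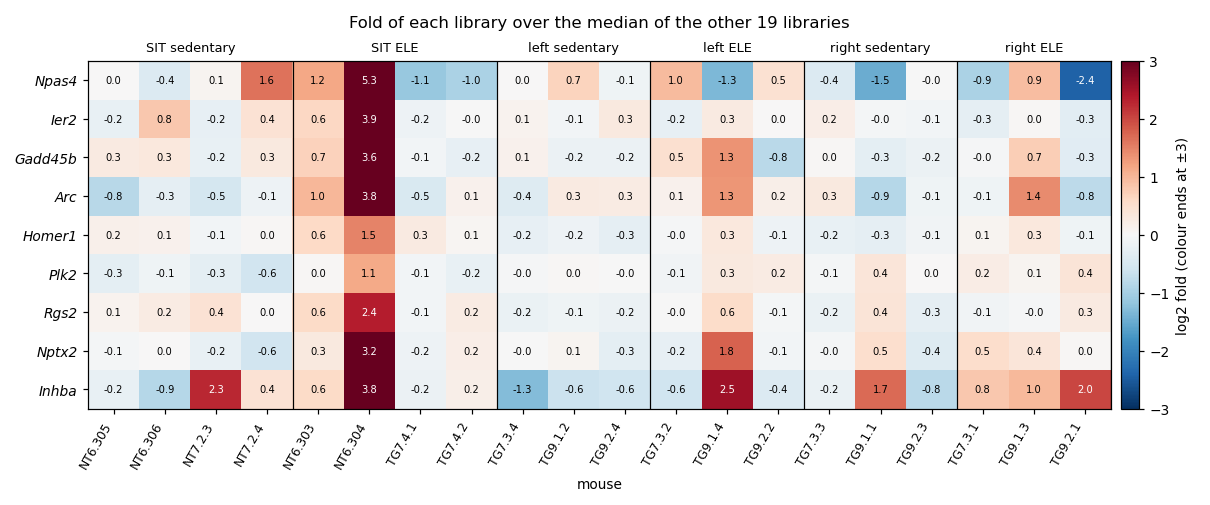
Log2 fold of each library over the median of the other 19 libraries, with genes in rows and mice in columns ordered by group. The column of NT6.304 is red in every row, TG9.1.4 is red for *Gadd45b*, *Arc*, *Nptx2* and *Inhba*, and *Inhba* is also red in sedentary mice NT7.2.3 and TG9.1.1 and in ELE mouse TG9.2.1.

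The SIT comparison asks whether 3 weeks of running left these transcripts changed in both hippocampi combined. In its 5 libraries *Arc* was the member called, where a call needs an unadjusted p under 0.05 and a change over 1.3-fold in either direction in edgeR's quasi-likelihood test. By that rule 3.73% of the 18238 genes tested were called, and 1 of 9 members. *Arc* stood at 158, 62.3 and 86.3 CPM in ELE mice NT6.303, TG7.4.1 and TG7.4.2 and at 48.3 and 71.6 CPM in sedentary mice NT6.305 and NT6.306. The groups overlapped, since TG7.4.1 was below NT6.306. The log2 fold change of *Arc* was 0.77 ± 0.33 (SE, 1.71-fold, Benjamini-Hochberg adjusted p = 0.906 in edgeR's quasi-likelihood test). Without NT6.303 it was 0.31 and without NT6.305 it was 0.51, and neither is a call. DESeq2 gave 0.77 and no call. Choroid plexus marker sums were 128, 233 and 575 CPM in these ELE mice and 584 and 669 CPM in the sedentary mice. Excitatory marker sums were 7262.5, 7132 and 7845 CPM against 6819 and 6763 CPM. The low microglia and endothelial sums were also lower in ELE, and the other marker sums overlapped. The part of these differences in the members' values was not tested.

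The secreted factor gene *Inhba* was next in size. It stood at 9.43, 6.36 and 7.22 CPM in the 3 ELE mice and at 6.21 and 3.96 CPM in the sedentary mice. These groups did not overlap, as was the case, with ELE higher, for 9.73% of genes. Its log2 fold change of 0.59 ± 0.27 missed the unadjusted threshold (adjusted p = 0.910 in edgeR's quasi-likelihood test). With 1 library left out it ran from 0.31 to 0.95 and was a call in 2 of 5 fits, without TG7.4.1 and without NT6.305, and it was also a call without the filter on low counts. *Homer1* at 0.18 ± 0.14, *Nptx2* at 0.15 ± 0.13, *Plk2* at 0.11 ± 0.11 and *Rgs2* at 0.10 ± 0.18 did not pass the test, and neither did *Npas4* at 0.28 ± 0.61, *Ier2* at -0.19 ± 0.33 and *Gadd45b* at -0.10 ± 0.27. The median over the members was 0.15 on the log2 scale, against 0.00 over all genes tested. No gene of the table had an adjusted p under 0.05 in this comparison, and 1000 had an unadjusted p under 0.05.

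Which SIT libraries entered decided the outcome. With all 8, 7 of 9 members were called higher in ELE, against 7.84% of all genes called in either direction and 2.39% called higher. *Npas4* then had a log2 fold change of 2.87 ± 1.26, *Arc* of 2.50 ± 0.80, *Ier2* of 1.99 ± 0.85, *Nptx2* of 1.88 ± 0.69 and *Gadd45b* of 1.82 ± 0.77. *Homer1* at 0.66 ± 0.27 and *Plk2* at 0.65 ± 0.27 were also called. *Rgs2* at 0.94 ± 0.46 and *Inhba* at 1.18 ± 0.91 were not, and the adjusted p-values of the members ran from 0.460 to 0.696 in edgeR's quasi-likelihood test. In the sedentary mouse NT7.2.3 *Inhba* stood at 30.7 CPM, above all SIT libraries but NT6.304. Without NT6.304 but with both other libraries, *Arc* alone was called (0.68 ± 0.28, against 7.05% of all genes). *Inhba* then had a value of -0.68 ± 0.59.

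Within the 4 mice numbered NT6, the 1 SIT mouse series with both conditions, all 9 members were called higher in ELE, against 6.74% of genes in either direction and 3.66% higher. That comparison sets NT6.303 and NT6.304 against NT6.305 and NT6.306. *Npas4* had a log2 fold change of 4.56 ± 1.29 there, *Arc* of 3.42 ± 0.89 and *Nptx2* of 2.45 ± 0.87, with an adjusted p = 0.648 for every member in edgeR's quasi-likelihood test. NT6.303 by itself was above both sedentary mice for 8 of the 9 members and for 35.6% of all genes, and *Ier2* was the member below one of them, at 9.54 CPM against 5.33 and 10.9. With NT6.304 added to the 5 libraries the study compared, no member was called, against 2.82% of genes, though the log2 fold changes ran from 0.53 to 3.60.

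**Figure D3:**
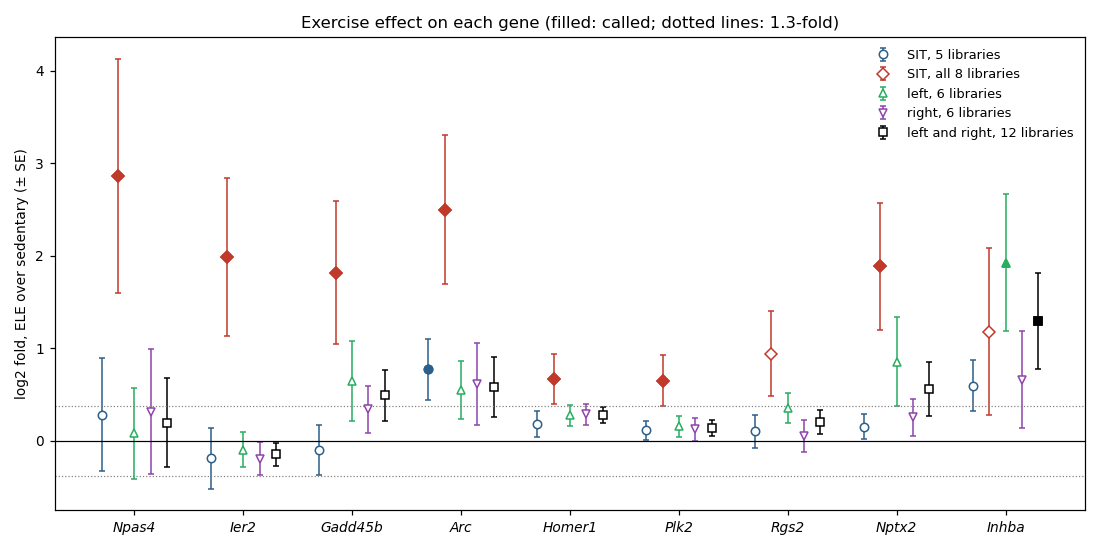
Log2 fold change of ELE over sedentary for each gene with its standard error, in the SIT comparison with 5 and with all 8 libraries, in the left and right hippocampus (6 libraries each) and in both sides together (12 libraries). Filled symbols mark calls, and dotted lines mark 1.3-fold. With all 8 SIT libraries 7 genes are filled, and elsewhere *Arc* in SIT and *Inhba* on the left and in both sides.

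In the left hippocampus *Inhba* was the member called, 1 of 9, against 2.12% of 17750 genes. It stood at 36.8 CPM in ELE mouse TG9.1.4, 4.77 in TG7.3.2 and 5.45 in TG9.2.2, and at 2.93, 4.64 and 4.77 CPM in the sedentary mice TG7.3.4, TG9.1.2 and TG9.2.4. The groups were apart by less than 0.01 CPM, and the difference lay mostly in TG9.1.4. The log2 fold change was 1.93 ± 0.74 (adjusted p = 0.960 in edgeR's quasi-likelihood test). Without TG9.1.4 it was 0.31, which is not a call, and the call was also lost without TG7.3.4, TG9.1.2 or TG9.2.4. With the first part of the mouse number taken as a replicate block, the call was lost as well.

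The same mouse stood apart in other members. In TG9.1.4 *Nptx2* was at 315 CPM, 3.40-fold over the median of the other 19 libraries, *Gadd45b* at 20.2 CPM, 2.55-fold, and *Arc* at 198 CPM, 2.52-fold. *Npas4* was at 1.39 CPM, 0.395-fold. In that library 2.04% of genes were over 2-fold and 4 of 9 members were. *Nptx2* in the 2 other left ELE mice, 78.5 and 87.6 CPM, was within or near the sedentary range of 75.5 to 97.4 CPM. Its left log2 fold change of 0.86 ± 0.48 did not pass the test, nor did those of *Gadd45b* (0.64 ± 0.43), *Arc* (0.55 ± 0.31), *Rgs2* (0.35 ± 0.16), *Plk2* (0.15 ± 0.11), *Npas4* (0.08 ± 0.50) and *Ier2* (-0.10 ± 0.19). *Npy* stood at 297 CPM and *Penk* at 160.4 CPM in TG9.1.4, 72.3- and 4.87-fold over the median of the others.

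*Homer1* showed a small difference on both sides. On the left it stood at 185, 231 and 172 CPM in ELE and at 160.4, 169 and 156 CPM in sedentary mice. Every ELE value was above every sedentary value, which was so for 5.24% of genes and for 3 of 9 members, the others being *Rgs2* and *Inhba*. On the right *Homer1* stood at 197, 231 and 175 CPM in ELE and at 161, 158 and 176 CPM in sedentary mice, and here the groups overlapped. The log2 fold change was 0.27 ± 0.11 on the left, 0.28 ± 0.11 on the right and 0.28 ± 0.08, or 1.21-fold, over both sides. In all of these the unadjusted p was under 0.05, as for 3.94%, 2.78% and 5.17% of genes, and the adjusted p = 0.925 over both sides in edgeR's quasi-likelihood test. Because the change was under 1.3-fold *Homer1* was not called, but over both sides its p stayed under 0.05 in all 12 fits that left out 1 library, with log2 fold changes from 0.21 to 0.32. On each side taken alone this was so in 2 of 6 such fits, with values from 0.14 to 0.36 on the left and from 0.17 to 0.37 on the right.

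No member was called in the right hippocampus, where 2.0% of 17570 genes were, and 1, *Homer1*, had an unadjusted p under 0.05. *Arc* stood at 78.7, 212 and 49.6 CPM in ELE mice TG7.3.1, TG9.1.3 and TG9.2.1 and at 96.6, 47.2 and 78.8 CPM in sedentary mice. Here TG9.1.3 was above and TG9.2.1 near the bottom of all right libraries, and the log2 fold change of 0.61 ± 0.45 did not pass the test. Without TG9.1.3 it was -0.21, and without TG9.2.1 it was 0.97 and a call. *Inhba* stood at 11.1, 12.5 and 25.4 CPM in ELE and at 6.25, 20.7 and 4.09 CPM in sedentary mice, and at 0.66 ± 0.53 it did not pass either. Without sedentary mouse TG9.1.1, which held 20.7 CPM, the value was 1.66 and a call (adjusted p = 0.385 in edgeR's quasi-likelihood test), the 1 call in 6 fits without 1 library. Without TG9.2.1 it was 0.19 and without TG9.2.3 it was 0.27. The values of *Gadd45b* (0.34 ± 0.25), *Npas4* (0.31 ± 0.68), *Nptx2* (0.25 ± 0.20), *Plk2* (0.12 ± 0.12), *Rgs2* (0.05 ± 0.18) and *Ier2* (-0.20 ± 0.18) did not pass the test. Every ELE value was above every sedentary value for 3.62% of genes here and for no member.

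Over both sides *Inhba* was again the member called, at 1.29 ± 0.52 (2.45-fold, adjusted p = 0.925 in edgeR's quasi-likelihood test), against 2.31% of genes. It kept the call in 7 of the 12 fits without 1 library, and fell to 0.48 without TG9.1.4. *Arc* at 0.58 ± 0.32, *Nptx2* at 0.56 ± 0.29 and *Gadd45b* at 0.49 ± 0.28 missed the unadjusted threshold. *Rgs2* at 0.20 ± 0.13, *Npas4* at 0.19 ± 0.48, *Plk2* at 0.14 ± 0.09 and *Ier2* at -0.15 ± 0.13 missed it as well. The median over the members was 0.28, against 0.00 over all genes.

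The difference between the left and the right effect was tested as an interaction, and no member was called, against 2.21% of genes. The largest value was 1.27 ± 1.02 for *Inhba* (left minus right, adjusted p = 1.0 in edgeR's quasi-likelihood test). *Nptx2* had 0.60 ± 0.58, *Gadd45b* 0.31 ± 0.55, *Rgs2* 0.30 ± 0.26, *Ier2* 0.10 ± 0.25, *Plk2* 0.03 ± 0.18, *Homer1* -0.01 ± 0.17, *Arc* -0.06 ± 0.64 and *Npas4* -0.23 ± 0.97. Between left and right hippocampi themselves no member was called either, against 1.44% of genes. The values ran from -0.70 ± 0.51 for *Inhba*, lower on the left, to 0.61 ± 0.49 for *Npas4*, higher on the left. *Gadd45b* had 0.23 ± 0.28, *Arc* 0.16 ± 0.32, *Nptx2* 0.16 ± 0.29, *Ier2* 0.13 ± 0.13, *Rgs2* -0.02 ± 0.13, *Homer1* -0.03 ± 0.08 and *Plk2* -0.10 ± 0.09.

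The listed regulators are given beside these values. The 3 gene lists were chosen with earlier results of these data known. The study itself names *Nr4a1*, *Dusp5* and *Bdnf* among the genes raised by ELE in its SIT comparison. The counts of listed genes are therefore a description and not a test. Of the 24 immediate early regulators, 4 rose and 0 fell in the 5-library SIT comparison, with a median log2 fold change of 0.27, and 6 rose and 0 fell on the left (0.28) and again on the right (0.31), against medians near 0 over all genes. Of all genes 1.57%, 1.14% and 0.746% were called higher in these comparisons. In SIT the orphan receptor gene *Nr4a1* rose by 0.74 ± 0.18, with the phosphatase gene *Dusp5* at 0.46 ± 0.15, *Junb* at 0.39 ± 0.14 and *Csrnp1* at 0.50 ± 0.21. *Nr4a1* kept its call whichever of the 5 libraries was left out. The call of *Dusp5* was lost without NT6.305 (0.27) and that of *Junb* without NT6.303 (0.25) or NT6.305 (0.34). *Csrnp1* lost its call without NT6.303 (0.42), TG7.4.1 (0.50), NT6.305 (0.51) or NT6.306 (0.49). On the left *Nfil3* rose by 0.66 ± 0.14, *Atf3* by 2.52 ± 0.72 and *Sik1*, a salt-inducible kinase, by 0.77 ± 0.26, and *Fos*, which encodes a subunit of AP-1, was also called. *Sik1* lost its call without TG7.3.2 (0.57) or TG7.3.4 (0.61). The level of *Atf3* was low, at 4.12 CPM in TG9.1.4, 4.10-fold over the median of the other libraries. Without TG9.1.4 its value was 1.37 and still a call. On the right *Egr2* rose by 2.58 ± 0.72, *Egr1*, a zinc finger factor, by 0.69 ± 0.21, *Nr4a1* by 0.50 ± 0.18 and *Egr4* by 0.59 ± 0.24. *Egr1* and *Egr2* kept their calls with any 1 library left out. *Egr2* was low in level, at 7.85 and 1.29 CPM in ELE mice TG9.1.3 and TG9.2.1 and 0.222 CPM in sedentary mouse TG9.1.1. *Nr4a1* lost its call without TG9.1.3 (0.26) or TG9.1.1 (0.36), and *Egr4* without TG9.1.3 (0.33), TG9.2.3 (0.50), TG7.3.1 (0.55) or TG9.1.1 (0.56). Over both sides 7 rose and 0 fell, against 0.867% of all genes called higher. *Nfil3* had the smallest p, at 0.54 ± 0.11, while *Egr2* at 1.86 ± 0.52 and *Sik1* at 0.61 ± 0.18 rose more. With all 8 SIT libraries 13 rose and 0 fell, against 2.39% of all genes called higher. In that set 4 later activity-regulated genes rose and 3 fell, and 3 partners and relatives rose and 3 fell. Of all genes 7.84% were called there in either direction. Those that fell include interneuron peptide genes, *Sst*, *Tac1* and *Cort*, the last of which was named after its values were seen. In NT7.2.3 and NT7.2.4, whose interneuron marker sums were 817 and 854 CPM, *Sst* was 38.8- and 47.7-fold, *Tac1* 13.1- and 19.4-fold and *Cort* 19.2- and 43.9-fold over the median of the other libraries. The partners *Gria4*, an AMPA receptor subunit gene, at 2.92- and 2.48-fold, and *Inha* at 1.97- and 1.73-fold were also high in both and fell. The part of interneurons in these falls was not tested.

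Of the 16 later activity-regulated genes 2 rose in SIT, *Bdnf*, a neurotrophin, by 0.44 ± 0.13 and *Ptgs2*, which encodes COX-2, by 0.43 ± 0.18. *Bdnf* lost its call without NT6.303 (0.35) or NT6.305 (0.31), and *Ptgs2* without any 1 of NT6.303 (0.31), NT6.305 (0.33), TG7.4.2 (0.41) and NT6.306 (0.54), and with all 8 libraries. On the left 3 rose of 14 tested, *Npy*, *Sorcs3* and *Pdyn*, and on the right 1, *Ptgs2*, by 0.47 ± 0.17, which lost its call without TG9.2.3 (0.29), TG9.1.3 (0.42) or TG7.3.1 (0.45). Of the 32 partners and relatives, *Gadd45g*, a relative of *Gadd45b*, rose by 0.93 ± 0.37 on the left, and none passed in SIT or on the right. Several left calls rested on TG9.1.4, where *Npy*, *Sorcs3*, *Fos*, *Gadd45g* and *Pdyn* stood 72.3-, 3.17-, 2.99-, 2.73- and 2.32-fold over the median of the other libraries. Without that library the left log2 fold change was 0.36 for *Fos*, 0.28 for *Sorcs3*, 0.28 for *Pdyn*, 0.26 for *Gadd45g* and -0.29 for *Npy*, and none was a call. The calls also depended on the sedentary libraries. Without TG7.3.4, TG9.1.2 or TG9.2.4 the calls of *Sorcs3* (0.85, 0.98 and 0.96), *Pdyn* (0.87, 0.71 and 0.76), *Gadd45g* (0.85, 0.93 and 0.9996) and *Npy* (5.30, 5.53 and 5.25) were lost, and that of *Fos* was lost without TG7.3.4 (1.09) or TG9.1.2 (1.31). The medians of the partners were 0.09, 0.00 and -0.01 in SIT, left and right. No listed gene had an adjusted p under 0.05 in these comparisons.

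How the members moved together from mouse to mouse was measured as Pearson's r of log2(CPM + 0.5) after each group's mean was taken away, for the 36 pairs. Over 20 libraries the median r was 0.815 and 35 pairs exceeded 0.5, against 10.0% of all pairs of genes. By permutation within groups 10 of the 36 pairs had an adjusted p under 0.05 by r and 9 by rho. Without the 2 libraries farthest from the median of the first gene the median r was 0.253. The high values rested on 1 animal. Without NT6.304 the median r was 0.291 and 12 pairs, or 33.3%, exceeded 0.5, against 9.85% of all pairs of genes. Over the 12 separate libraries alone, which do not include it, the median was 0.355 and again 33.3% of the pairs exceeded 0.5, against 11.8%. Spearman's rho over all 20 libraries had a median of 0.480. The libraries share scaling, and the genes are not independent of each other.

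After NT6.304 was left out, 3 pairs had an adjusted p under 0.05 by permutation within groups (100000 permutations, two-sided, 36 pairs). *Gadd45b* and *Homer1* gave r = 0.831 (permutation p = 0.00153, adjusted p = 0.0275) and rho = 0.772 (permutation p = 0.0036, adjusted p = 0.0655), and r was 0.868 without the 2 libraries farthest from the median. *Ier2* and *Arc* gave r = 0.634 (permutation p = 0.00143, adjusted p = 0.0275) and rho = 0.677 (permutation p = 0.00364, adjusted p = 0.0655), with r = 0.660 without the 2 farthest. *Rgs2* and *Inhba* gave r = 0.798 (permutation p = 0.00302, adjusted p = 0.0362) and rho = 0.681 (permutation p = 0.00984, adjusted p = 0.102), with r = 0.569 without the 2 farthest. By rho no pair had an adjusted p under 0.05.

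The members then no longer moved as 1 block. *Ier2*, *Gadd45b*, *Arc* and *Homer1* had r from 0.47 to 0.83 with each other, and *Plk2*, *Rgs2*, *Nptx2* and *Inhba* from 0.43 to 0.80. The sets were not separate, since *Nptx2* also had r = 0.58 with *Gadd45b* and 0.50 with *Homer1*. Without the 2 libraries farthest from the median, *Nptx2* had r = 0.29 with *Plk2*, 0.24 with *Rgs2* and 0.17 with *Inhba*, and *Ier2* had 0.26 with *Homer1*. *Npas4* had values of 0.19 to 0.52 with the first 4 and of -0.58 to -0.33 with the last 4. The first did not hold without the 2 libraries farthest from the median, NT6.303 and TG9.1.3, where its r was -0.19 with *Ier2*, -0.30 with *Gadd45b*, -0.28 with *Homer1* and near 0 with *Arc*. In the 12 separate libraries *Npas4* had r = -0.75 with *Plk2* and -0.75 with *Inhba*, while *Rgs2* and *Inhba* had r = 0.97. These groupings were read from the values and have no test.

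**Figure D4:**
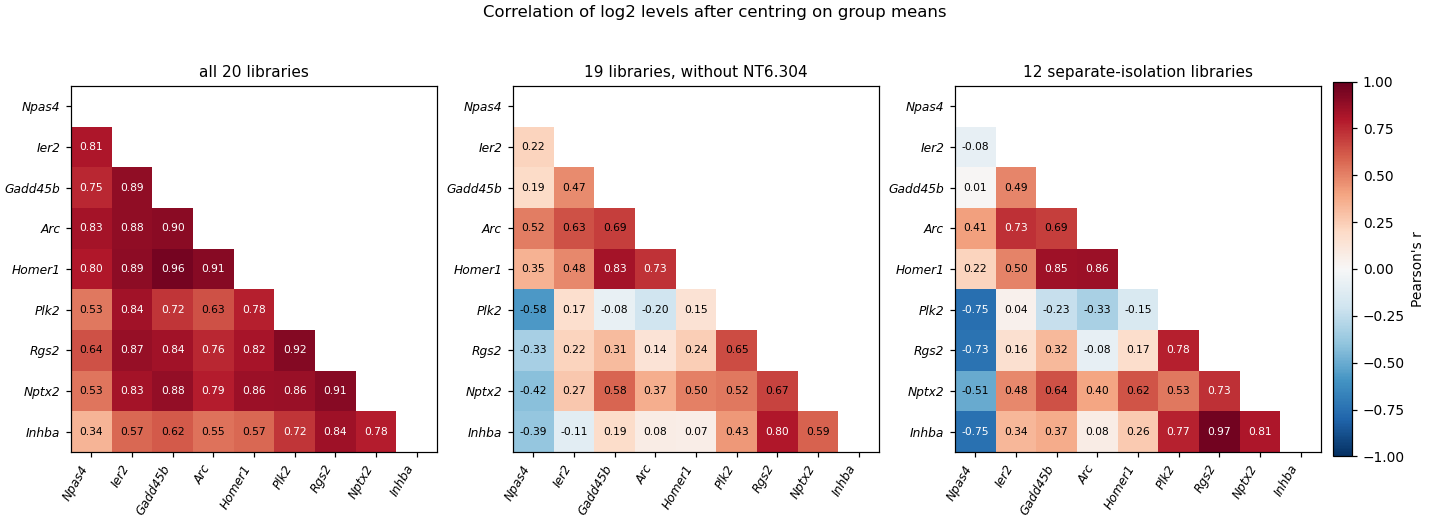
Pearson's r between each pair of genes after centring on group means, over all 20 libraries, over the 19 without NT6.304 and over the 12 separate-isolation libraries. The first panel is red throughout, with a lowest value of 0.34, and in the other panels the column of *Npas4* turns blue at *Plk2*, *Rgs2*, *Nptx2* and *Inhba*.

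The separate libraries with the most *Inhba* also stood apart in 2 of 5 astrocyte markers and in 2 of 7 excitatory markers. Among the separate libraries *Inhba* was at 36.8 CPM in TG9.1.4 (left ELE), 25.4 in TG9.2.1 (right ELE) and 20.7 in TG9.1.1 (right sedentary). The summed level of 5 astrocyte markers in these libraries was 5017, 4480 and 5071 CPM, while it ran from 2241 to 3118 CPM in the other 9, where *Inhba* ran from 2.93 to 12.5 CPM. *Gfap*, the intermediate filament of astrocytes, was at 3905, 3335 and 4061 CPM against 1259 to 1949, and *Aqp4* at 351, 308 and 317 CPM against 165 to 227. *Gfap* thus made up most of the sum in these libraries. The study proposes that *Gfap* in its TRAP samples may come from neural stem cells of the dentate gyrus. The other 3 astrocyte markers did not separate these libraries from the rest. *Gja1* was at 118, 180.0 and 136 CPM against 180 to 236 and *Slc1a3* at 591, 613 and 514 CPM against 591 to 752, both toward the low end, and *Aldh1l1* at 51.9, 43.7 and 43.6 CPM overlapped with 35.6 to 51.1. Of the excitatory markers, *Slc17a7* was at 4008, 3979 and 4339 CPM against at most 3856, and *Neurod2* at 722, 764 and 672 CPM against at most 654. The other 5 overlapped with the rest or ran lower, such as *Camk2a* at 3968, 4301 and 3302 CPM against 3921 to 5217 and *Tbr1* at 41.4, 69.6 and 52.5 CPM against 56.9 to 68.9. The excitatory marker sum, 9109, 9561 and 8718 CPM, lay within the range of the other 9, 8053 to 10183 CPM. *Npas4* was at 1.39, 0.655 and 1.25 CPM in these libraries against 1.84 to 6.80, and *Rgs2* at 43.4, 35.4 and 38.4 CPM against 24.8 to 29.5. *Plk2* was at 272, 287 and 284 CPM against 205 to 260.1. The part of any of these cell types in these values was not tested.

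**Figure D5:**
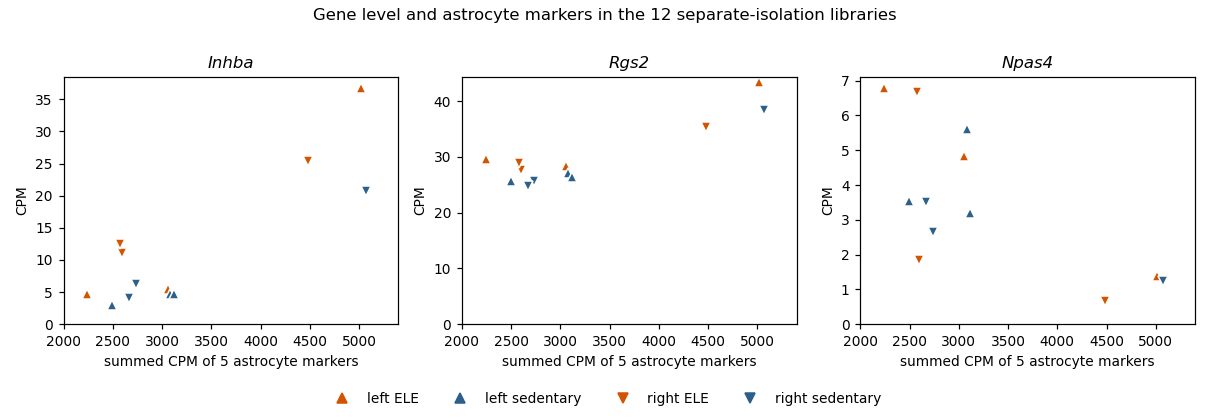
CPM of *Inhba*, *Rgs2* and *Npas4* against the summed CPM of 5 astrocyte markers in the 12 separate-isolation libraries, each point 1 mouse. The 3 libraries at 4480 CPM or more on the horizontal axis, from 2 ELE mice and 1 sedentary mouse, have the highest *Inhba* and *Rgs2* and the lowest *Npas4* values. In these 3 libraries *Gfap* makes up most of the sum.

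The genes whose pattern was most like the mean of the members were looked up among 14225 genes. Over 20 libraries they were *Scg2*, a granin (r = 0.961), *Fos* (0.953), *Penk* (0.950), *Junb* (0.948) and *Arl4d* (0.946). Over the 19 libraries without NT6.304 they were *Ier5* (0.912), *Dusp4* (0.891), *Sertad1* (0.854), *Prag1* (0.851) and *Desi1* (0.843). For single members over 20 libraries, *Fosb* was closest to *Arc* (0.964), *Homer1* (0.942) and *Gadd45b* (0.942), *Dusp1* to *Npas4* (0.902), *Scg2* to *Ier2* (0.946), *Dok7* to *Plk2* (0.961), *Jup* to *Rgs2* (0.957), *Grb2* to *Nptx2* (0.972) and *Flnc* to *Inhba* (0.972). In the 19 libraries, *Fosb* was closest to *Arc* (0.905), *Nr4a2* to *Npas4* (0.895), *Trnp1* to *Nptx2* (0.938) and *Msn* to *Inhba* (0.965). The closest to *Ier2* was *Igsf9* (0.869), to *Gadd45b* *Ctnnbip1* (0.809), to *Homer1* *Ak4* (0.832), to *Plk2* *Plekha2* (0.924) and to *Rgs2* *Cela1* (0.937). These are the highest of many values and carry no test.

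Between SIT and separate isolation, exercise taken into account, no member was called, while 15.2% of 20345 genes were. *Homer1* was 0.27 ± 0.08 higher in SIT and *Plk2* 0.27 ± 0.08 lower, both under 1.3-fold, with adjusted p = 0.0311 and adjusted p = 0.0225 in edgeR's quasi-likelihood test, where 21.1% of genes had an adjusted p under 0.05. *Ier2* had 0.28 ± 0.16, *Rgs2* 0.19 ± 0.12, *Gadd45b* 0.08 ± 0.24, *Npas4* -0.01 ± 0.47, *Nptx2* -0.23 ± 0.24, *Arc* -0.31 ± 0.30 and *Inhba* -0.71 ± 0.44 (SIT minus separate). The excitatory marker sum was 6763 to 7845 CPM in the SIT libraries and 8053 to 10183 CPM in the separate ones. The mitochondrial share was at least 0.195% of counts in SIT and at most 0.122% in the separate libraries. Neither range overlapped between the methods, and the part of these differences in the members' values was not tested. With all 8 SIT libraries 5 members, *Npas4*, *Ier2*, *Gadd45b*, *Homer1* and *Rgs2*, were higher in SIT (13.1% of genes called), and *Plk2* at -0.11 ± 0.14 did not pass the test. With the 5 SIT libraries, 8 of the 32 partners and relatives were lower in SIT and 1 was higher, and with all 8 these were 7 and 5. The scaffold genes *Shank1* and *Shank3*, whose proteins bind Homer, stood at 0.371-fold and 0.410-fold of their separate level, *Homer2* at 0.638-fold and the *Plk2* substrate gene *Sipa1l1* at 0.669-fold, the highest of the adjusted p-values being 3.57e-05 in edgeR's quasi-likelihood test. SIT and separate libraries also differ in mice and in the number of hippocampi per mouse, and these cannot be told apart from the method.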

How the data were processed

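TRAP-seq counts of 20 Emx1-NuTRAP libraries were used. The authors aligned reads to GRCm38 with STAR 2.7.3a, removed duplicates with Picard 1.87, counted read pairs on exons by strand, and deposited raw counts, 1 whole number per gene and mouse. Columns were tied to groups by mouse number through the study's table of libraries. Left and right also come from that table and may be exchanged, since the labels hold no mouse numbers and their order runs with the opposite sides. The 24 columns of a wild-type table could not be matched and were not used. Duplicate removal can flatten the counts of short, abundant transcripts.

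Groups were compared with edgeR 4.0.16 (R 4.3.3), with TMM, filterByExpr and the quasi-likelihood test over all genes, and p-values were adjusted by the Benjamini-Hochberg method. Calls needed an unadjusted p under 0.05 and over 1.3-fold, as in the study. The 5 SIT libraries that the study compared were identified among 24 subsets from its listed mean counts, which matched for 633 of 633 genes within a relative tolerance of 1e-04. Fits were tested on simulated counts. DESeq2 1.42.0, other size factors, no filter, other library sets, a replicate block and leaving out each library were alternatives. Other columns of the authors' comparisons were not used. p-values measure the spread between mice. Correlations used a pseudocount of 0.5 CPM and 100000 permutations within groups.

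The members and the 3 gene lists were chosen with earlier results of these data known. All members are named in each comparison between groups, with up to 4 called genes per list, those of smallest p, and the genes most like the members. Libraries of 1 group differed by more than counting error in each of 24 pairs. Promoter windows came from RefSeq.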

Additional observations from a re-analysis of the deposited data

Results flagged for a closer look

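In groups of 4 libraries, the highest or lowest value was set against the gap to its neighbour on the log2(CPM + 0.5) scale with Dixon's criterion, for 9 genes in the SIT ELE and the SIT sedentary group. Of these 18 sets of 4 values, 3 exceeded the critical value, where chance gives about 1 in 20. Of these, 2 were ELE mouse NT6.304, with *Nptx2* at 881 CPM and *Inhba* at 87.1 CPM. In the other members NT6.304 was also the highest of its group, but its gap to the next library, as a share of the range of the group, did not reach the critical value. The remaining set was *Gadd45b* in sedentary mouse NT7.2.3, at 6.91 CPM below values of 9.59 to 9.85.

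*Npy* had an interaction of hemisphere and exercise of 6.89 on the log2 scale (left minus right, adjusted p = 1.0 in edgeR's quasi-likelihood test). It was the 1 gene of the 32 examined with an unadjusted p under 0.05, as 2.6% of all genes had, and its sign depends on which side each library came from, which is in doubt. It stood at 297 CPM in left ELE mouse TG9.1.4 and at 78.3 CPM in right sedentary mouse TG9.1.1. Without TG9.1.4 its left log2 fold change turned to -0.29.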

How the results depend on the processing

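The number of members called moved with the libraries and the filter. In SIT it was 1, with 0 by DESeq2, 2 with no filter on low counts, 7 with all 8 libraries, 9 in the NT6 mice, 0 with the 6 libraries that include NT6.304, and 0 to 2 with 1 library left out. On the left it was 1, with 3 without the filter and 0 to 4 with 1 library left out. On the right it was 0, with 2 and 0 to 2, and over both sides 1, with 4 and 0 to 3. The interaction had 0, with 1 and 0 to 0, and left against right 0, with 1 and 0 to 2. SIT against separate isolation had 0, with 1, 0 to 1, and 5 with either all 8 or 6 SIT libraries. Without the filter the adjusted p of *Arc* in SIT was 1.21e-06 in edgeR's quasi-likelihood test, and the cause was not tested.

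Over all genes, calls in SIT were 681, with 1375 for all 8, 1196 for the NT6 mice, 1281 for the 7 libraries without NT6.304 and 357 to 1122 with 1 left out. Left calls were 376, with 566 by DESeq2, 703 without the filter and 225 to 975 with 1 left out. Right calls were 351, with 719 without the filter and 311 to 657. Calls over both sides were 435, with 1096 and 370 to 736, and in the interaction 416, with 1047 and 357 to 727. Left against right gave 271, with 444 by DESeq2, 791 without the filter and 267 to 640, and isolation 3083, with 2839 to 3233.

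Of 1445 values of single genes under the alternatives, 91 changed sign, 7 of them with a call in one of the settings compared. In SIT *Ier2* (-0.19) became 1.99 with all 8 and 2.698 in the NT6 mice, and *Gadd45b* (-0.10) became 1.82 and 2.52. *Npas4* between isolations (-0.01) became 2.02 with all 8 and 1.64 with 6 SIT libraries. *Npy* on the left ran from -0.29 without TG9.1.4 to 5.93.

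The median r of the members (0.815) was 0.411 without the 3 libraries the study left out, 0.939 in SIT, 0.355 in the separate libraries, 0.480 by Spearman, 0.291 without NT6.304, and 0.291 to 0.850 with 1 library left out. With the prefix of the mouse number taken as a replicate block, calls of members were 4 in SIT (*Arc* 1.40, *Npas4* 1.34, *Inhba* 0.89, *Homer1* 0.45), 0 on the left and 2 over both sides, and the median r of the separate libraries was 0.234. Within each side, deviations of ELE and sedentary mice sharing a number correlated at -0.0896 to 0.210. Those of mice with different numbers correlated at -0.218 to 0.269. So few values cannot decide whether the numbers pair the mice, and the main fits leave the mice unpaired. Each of these numbers has an ELE and a sedentary mouse on each side. The study divided littermates between conditions, and whether the numbers stand for litters is not given. SIT mice were not examined for this, and those numbered TG7.4 have no sedentary counterpart among the 5, so that block fit rests on NT6.303 against NT6.305 and NT6.306. The 7- and 6-library sets, Spearman and the 19 libraries were chosen after the data were seen. Of the values of single genes, 1210 kept direction and side of the threshold, 54 newly passed it, 90 no longer passed, 84 changed sign with no call in either setting and 7 changed sign with a call in one.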
